A study of Drosophila melanogaster with 27 samples.

Results

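The Trithorax group genes *trx* and *ash1* and the Brahma complex genes *brm*, *osa*, *mor*, *Snr1* and *Bap60* were examined for the proteins and histone marks profiled along them in the *Drosophila* larval brain. These 7 genes, of 13945 protein-coding genes on the chromosome arms, were chosen by name. Each was followed over its gene body and 5000 bp on both sides, which gave 153.5 kb in all. The rule itself used no measured value, but the genes were chosen with earlier results of these data known.

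The study used CUT&RUN, in which an antibody tethers a nuclease to chromatin and the DNA released around its target is sequenced. It asked how FruC, a zinc finger isoform of the transcription factor Fruitless, acts on gene expression in neural stem cells, the neuroblasts. All brains were dissected whole from third-instar larvae, and all were *brat*-null (*brat11/Df(2L)Exel8040*), which enriches the brain for type II neuroblasts but does not remove the other cells. Control brains carried *fruC::myc*, a Myc tag on FruC. The *fruC*-null brains were also *brat*-null and carried *fruΔC/fruAj96U3*. Control brains were profiled for Myc (FruC::Myc), for all Fru isoforms (FruCOM), and for the Notch protein Su(H), the GAGA factor Trl, the chromatin proteins Su(z)12 and Caf-1, and H3K9me3. H3K27ac, H3K4me3 and H3K27me3 were profiled in both genotypes. Each had 2 replicates, with 50 brains for a transcription factor sample and 25 for a histone sample.

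Trithorax group proteins keep genes active through cell division, and they were found as opponents of the Polycomb group, whose complex PRC2 places H3K27me3. Trx methylates H3K4 and Ash1 methylates H3K36. Brm is the ATPase of the Brahma (SWI/SNF) complex, which moves nucleosomes. Mor, Snr1 and Bap60 are core subunits of that complex, and Osa marks its BAP form. Su(z)12 is a PRC2 subunit. Caf-1 here is the p55 subunit of chromatin assembly factor 1, which is also a core component of PRC2. Trl binds the word GAGAG, and Su(H) is the DNA-binding protein of the Notch pathway.

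Peaks had been called on each replicate alone, so every transcription factor had 2 lists and the 6 antibodies had 12. A peak carries a −log10(Q-value), which grows with the strength of the evidence, and a fold enrichment over the local background. Neither can be compared between lists as an amount of protein, because the lists hold no reads and the depth behind them is unknown. The FruC::Myc lists had 15563 and 5174 peaks, and the other lists between 513 (Su(H) replicate 2) and 4201 (FruCOM replicate 1). A gene was therefore read as carrying a peak when both replicates had one, and values are given for each replicate. With 2 lists for each antibody and no read counts, no test between genes or genotypes was made.

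The peaks lay mostly at 3 of the 7 genes. *osa* had 46 peaks over the 12 lists, from all 6 antibodies. *trx* had 28 from 5 antibodies and *mor* had 17 from 5 antibodies, with Su(H) missing at both. The other genes had 6 (*ash1*), 5 (*Snr1*), 3 (*brm*) and 3 (*Bap60*). FruC::Myc gave all of these except 2 Su(z)12 peaks near *Snr1*. A place with peaks in several lists is counted in each of them. The same totals were not counted over all genes. The windows of *osa* (40.5 kb) and *trx* (33.5 kb) were the longest, but that of *mor* (14.8 kb) was shorter than that of *brm* (22.8 kb).

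**Figure D1:**
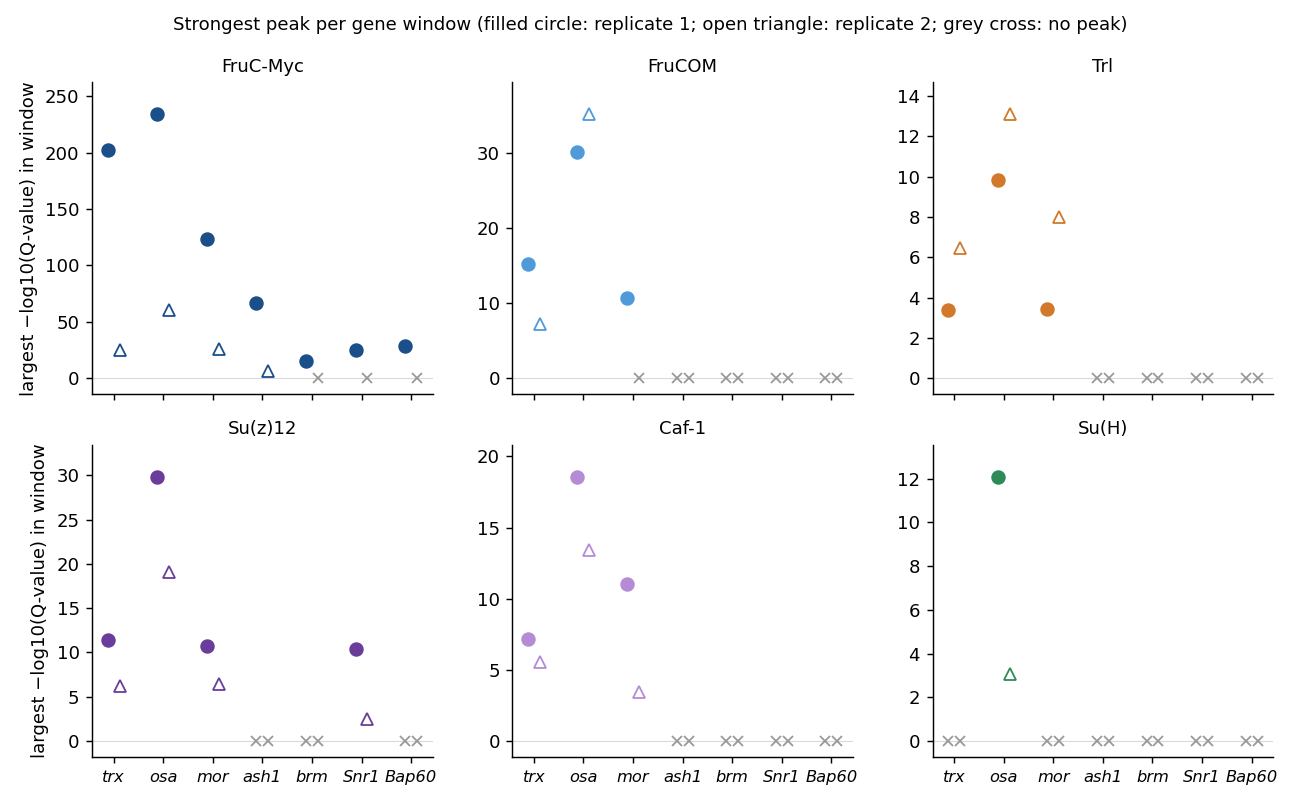
Largest −log10(Q-value) of any peak in the window of each gene, one panel for each antibody, with its own vertical scale. Filled circles are replicate 1, open triangles replicate 2, and grey crosses mark a list with no peak in the window; *osa* has a peak in all 12 lists, while *ash1*, *brm* and *Bap60* have, of these 6 antibodies, peaks of FruC::Myc only.

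Sequences under the FruC::Myc peaks past a −log10 Q of 100, and under the *ash1* promoter peak, are shown first, because these sites differ in the GAGAG word that Trl binds. Each of the first 5 is the plus strand of BDGP6 (dm6), 101 bases centred on the replicate 1 summit, with every GAGAG or its complement CTCTC in capitals. All of these genes are transcribed from the minus strand. The first of them is in an intron of *trx* (chr3R:14278798-14278898), the next 3 are in introns of *osa* (chr3R:17711432-17711532, chr3R:17717271-17717371 and chr3R:17700872-17700972), and the last is between *ash1* and *Taf6* (chr3L:19598764-19598864).
trx intron: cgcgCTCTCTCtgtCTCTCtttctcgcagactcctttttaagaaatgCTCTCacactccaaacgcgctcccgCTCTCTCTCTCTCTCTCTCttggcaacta
osa intron, strongest peak: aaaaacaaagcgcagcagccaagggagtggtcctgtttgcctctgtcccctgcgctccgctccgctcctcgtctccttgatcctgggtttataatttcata
osa intron, all 12 lists: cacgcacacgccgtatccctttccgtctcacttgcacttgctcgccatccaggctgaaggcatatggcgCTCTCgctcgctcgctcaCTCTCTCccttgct
osa distal intron: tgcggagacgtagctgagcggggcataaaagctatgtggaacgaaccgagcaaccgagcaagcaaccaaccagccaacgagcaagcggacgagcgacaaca
ash1 promoter: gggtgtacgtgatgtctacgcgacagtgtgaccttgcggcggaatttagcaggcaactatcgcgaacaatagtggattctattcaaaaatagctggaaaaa

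The other *trx* summit lies in the 5′ UTR of *trx* and the *mor* summit in that of the neighbouring gene *Hel89B*. Only 30 bases around the longest run of the word are shown for each (chr3R:14286461-14286490 and chr3R:15973790-15973819), the first beginning inside a CTCTC.
trx exon: TCacattcgccgCTCTCTCactctgtcgct
mor upstream: aggaaGAGAGcGAGAGAGAGcaaccattgc

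Over 101 bases, the *trx* intron held 36 bases in GAGAG or CTCTC words, and the *trx* exon and the *osa* site of all 12 lists held 12 each. The other *osa* sites and the *ash1* promoter held none. Over all FruC::Myc replicate 1 peaks in the windows, 9 of 38 (23.7%) had the word within 50 bp of the summit on either strand. It was present at 30.0% of the 15370 peaks elsewhere and in 12.7% of windows of the same 101 bases centred on the 19252 annotated start sites. Among the peaks with a −log10 Q above 100, it was present at 4 of 6 in the windows and at 43.4% of 1201 elsewhere. By gene the 9 summits were 4 of 7 for *trx*, 3 of 12 for *osa*, 1 of 5 for *mor* and 1 of 3 for *Snr1*, with none among those of *ash1*, *brm* and *Bap60*. Over all 38 peaks the share was below that at other FruC::Myc peaks, and over the 6 strong ones it was above it, with few peaks in either case.

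FruC::Myc promoter peaks were found in both replicates at *ash1* and *mor*, and were weak at *brm*, *Snr1* and *Bap60*. A promoter here ran from 1000 bp before to 100 bp after a start site. Replicate 1 had a peak on all 7 promoters, against 49.4% of all protein-coding genes, whereas replicate 2 had one on 2 of 7, *ash1* and *mor*, against 17.0%. In both replicates together it was the same 2 of 7, beside 17.0% of all genes. With 7 genes, 1 gene more or less moves the share by more than its distance from the background.

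The replicate 1 promoter peaks ranged from 4.13 to 124 in −log10 Q, beside 2.16 to 982 over all genes with such a peak, of which 397 were above 130. The −log10 Q was 124 for *mor*, 72.4 for *trx*, 66.6 for *ash1*, 25.1 for *osa*, 9.69 for *Bap60*, 7.87 for *Snr1* and 4.13 for *brm*. In replicate 2 it was 26.3 for *mor* and 6.92 for *ash1*. Among the 6884 genes with such a peak, *mor* was at or above 93.5% of the values, *trx* 80.8%, *ash1* 77.7%, *osa* 42.3% and *brm* 1.39%. The median was 25.1 for these genes and 31.5 for all genes with a peak. The ATPase gene *brm* and the core subunit genes *Snr1* and *Bap60* were thus at the low end, with fold enrichments of 2.99, 3.82 and 4.28, and had no peak anywhere in their windows in replicate 2.

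**Figure D2:**
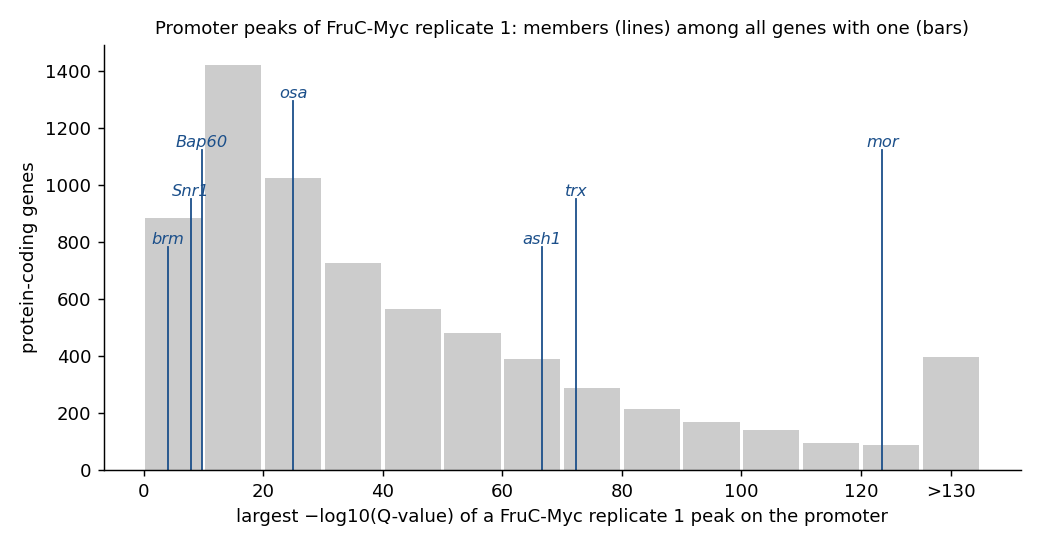
Number of protein-coding genes (grey bars) by the largest −log10(Q-value) of a FruC::Myc replicate 1 peak on their promoter, in steps of 10 with the last bar holding all values above 130; vertical lines mark the 7 genes. *brm*, *Snr1* and *Bap60* lie below 10, and *mor* is highest at 124.

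Promoters of these genes are close to those of neighbours, which limits what a promoter peak can be assigned to. The nearest other start site was 96 bp away for *Bap60* (*CG12096*), 266 bp for *brm* (*Arl1*), 290 bp for *Snr1* (*mRpL44*), 333 bp for *ash1* (*Taf6*) and 385 bp for *mor* (*Hel89B*). It was 1104 bp for *osa* (*Pxt*) and 1326 bp for *trx* (*lncRNA:CR45596*). Of the 38 replicate 1 summits in the windows, 15 were nearest to the start of the gene itself and 23 to that of another gene, 22 of them within 1000 bp. The strongest *Bap60* window peak (−log10 Q 28.7) lay 52 bp from the start of *CG4332*, the strongest of *Snr1* (24.9) 59 bp from *RpL35A*, and the strongest of *brm* (15.6) 42 bp from *Brr2*. Both strong *mor* summits, at −891 and −266 bp, were nearer to *Hel89B*, a gene for a helicase of the SNF2 class, at 506 and 119 bp.

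Over the whole windows, promoters included, 4 of 7 had a FruC::Myc peak in both replicates (*trx*, *ash1*, *osa* and *mor*), beside 39.6% of all genes. The replicate 2 peaks of *ash1* and *mor* all lay on the promoter, and those of *trx* and *osa* all lay off it. In replicate 1 the windows had 24.8 peaks for each 100 kb against 11.5 on the arms, and in replicate 2 they had 8.47 against 3.82. The arms were taken whole and not as gene windows, whereas the 7 windows also held 44 other genes. The highest density was at *mor*, with 3.38 replicate 1 peaks for each 10 kb, and the lowest at *brm*, with 1.32. Of the 38 replicate 1 peaks, 11 (28.9%, 95% Wilson interval 17.0 to 44.8) overlapped a replicate 2 peak, beside 32.0% elsewhere. The Wilson intervals given here cover counting error only. They take each peak as independent, although several lie on the same gene, so they may be too narrow.

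Peaks past a −log10 Q of 100, the level the Methods set for Fru, made 6 of 1221 FruC-bound regions genome-wide. They lay at 3 of 7 genes, beside 13.5% of all genes. All 6 passed through replicate 1, and none passed in replicate 2, which had only 43 such regions genome-wide. The weakest was at 121, and the next peak below the threshold was at 73.2, upstream of *mor*. Whether the 100 was meant for the −log10 Q or for the MACS2 score, which is 10 times as large, changes this result. Read on the score, for H3K9me3 as well, the threshold gave 24 of 10427 regions, at 7 of 7 genes, beside 70.3% of all genes. The Methods word the threshold as a −log10 Q. The total of FruC-bound regions in the paper is, however, much nearer to the total under the score reading. The regions described next may therefore be only the strongest of those the paper counted. At a −log10 Q above 100 the 6 regions were 3 on *osa*, 2 on *trx* and 1 upstream of *mor*.

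On *osa*, the 3 regions lay 1029, 6868 and 17428 bp into the gene, all in introns. The site at 6868 bp (chr3R:17710803-17711884) had a FruC::Myc −log10 Q of 234 in replicate 1 and 60.1 in replicate 2, with fold enrichments of 11.6 and 15.6. These were within the top 0.893% and 1.51% of their lists. FruCOM peaks there had values of 30.2 and 13.4, and Su(z)12 peaks 21.1 and 19.1. Caf-1 had 18.6 and 7.22. Trl (7.08) and Su(H) (5.89) had a peak in replicate 1 only. Both Fru antibodies and both chromatin proteins were therefore present in both replicates, and Trl and Su(H) in 1 each.

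The *osa* site at 1029 bp (chr3R:17717079-17717494) was the only one of the 38 sites in the windows found in all 12 lists. How many sites on the arms were in all 12 was not counted. FruC::Myc had −log10 Q values of 172 and 43.4, and FruCOM 30.0 and 35.2. Su(z)12 had 29.8 and 16.3, Caf-1 8.08 and 13.4, and Trl 9.84 and 13.1. Su(H) had 12.1 and 3.06. The Su(H) peaks made *osa* 1 of 7 windows with Su(H) in both replicates, beside 1.56% of all genes. The Su(H) word GTGGGAA, searched on both strands within 100 bp, was at none of the 3 Su(H) summits on *osa* and at 3.00% of the 1032 Su(H) summits on the arms. With the word so rare at Su(H) summits, its absence from these 3 says little. Its share at other places was not counted.

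The third *osa* region (chr3R:17700676-17701568) overlapped an exon of the non-coding gene *lncRNA:CR46036*, which lies inside *osa*. FruC::Myc had 121 and 21.5 there, FruCOM 25.9 and 10.5, and Su(z)12 9.18 and 4.92. Trl had 12.4 in replicate 2 and Caf-1 had 10.1 in replicate 1, each with no peak in the other replicate. At the *osa* start site itself the FruC::Myc peak had 25.1 in replicate 1 and none in replicate 2. Other intronic FruC::Myc peaks of *osa*, at 543, 14170 and 17975 bp, had 19.0, 7.68 and 7.86 in replicate 1.

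On *trx* the stronger region was also intronic, 8055 bp from the start (chr3R:14278595-14279169). FruC::Myc had −log10 Q values of 202 and 20.3, with fold enrichments of 13.5 and 9.94. FruCOM had 14.0 and 7.27, Trl 3.39 and 6.44, and Caf-1 7.17 and 5.56. Su(z)12 had 6.65 in replicate 1 and no overlapping peak in replicate 2. A further peak deeper in the intron, at 8661 bp, had 63.9 and 9.99 for FruC::Myc and 15.3 for FruCOM replicate 1. The GAGAG-rich sequence printed for *trx* is the FruC::Myc summit of this stronger region. The Trl replicate 1 peak lay beside those 101 bases, and the Trl replicate 2 peaks lay on both sides of it, one of them reaching its edge.

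The other *trx* region lay 419 bp inside the gene, on the 5′ UTR exon (chr3R:14286150-14286681), and was outside the promoter, which ended 100 bp after the start. FruC::Myc had 154 and 24.9. Su(z)12 had 11.4 and 6.23 and Caf-1 5.76 and 3.75. FruCOM had 7.37 in replicate 1 only, and neither Trl nor Su(H) had a peak. The 2 regions of this gene for an H3K4 methyltransferase thus shared FruC::Myc and Caf-1 in both replicates, whereas Trl was found at the intronic one alone.

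At *mor* the strong region (chr3R:15973506-15974100) had a FruC::Myc −log10 Q of 124 and 26.3 and a FruCOM value of 10.7 in replicate 1. Trl had 3.45 and 7.98, Su(z)12 5.21 and 4.55, and Caf-1 11.1 and 3.48. The adjoining peak at −266 bp, between *mor* and *Hel89B*, had 73.2 and 10.1 for FruC::Myc and 10.7 and 6.43 for Su(z)12. All of these lay on the promoter as defined for *mor*, and the neighbour shares them.

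At *ash1* the only peak on the promoter was FruC::Myc, with −log10 Q values of 66.6 and 6.92 and fold enrichments of 11.7 and 6.39. No peak of any of the other 5 antibodies lay in its window in any list. Near *Snr1*, Su(z)12 had 10.4 and 2.49 at the same place as the FruC::Myc peak by *RpL35A*, 3771 bp before the start. At *brm* and *Bap60*, FruC::Myc was the only one of the 6 transcription factor antibodies with a peak.

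**Figure D3:**
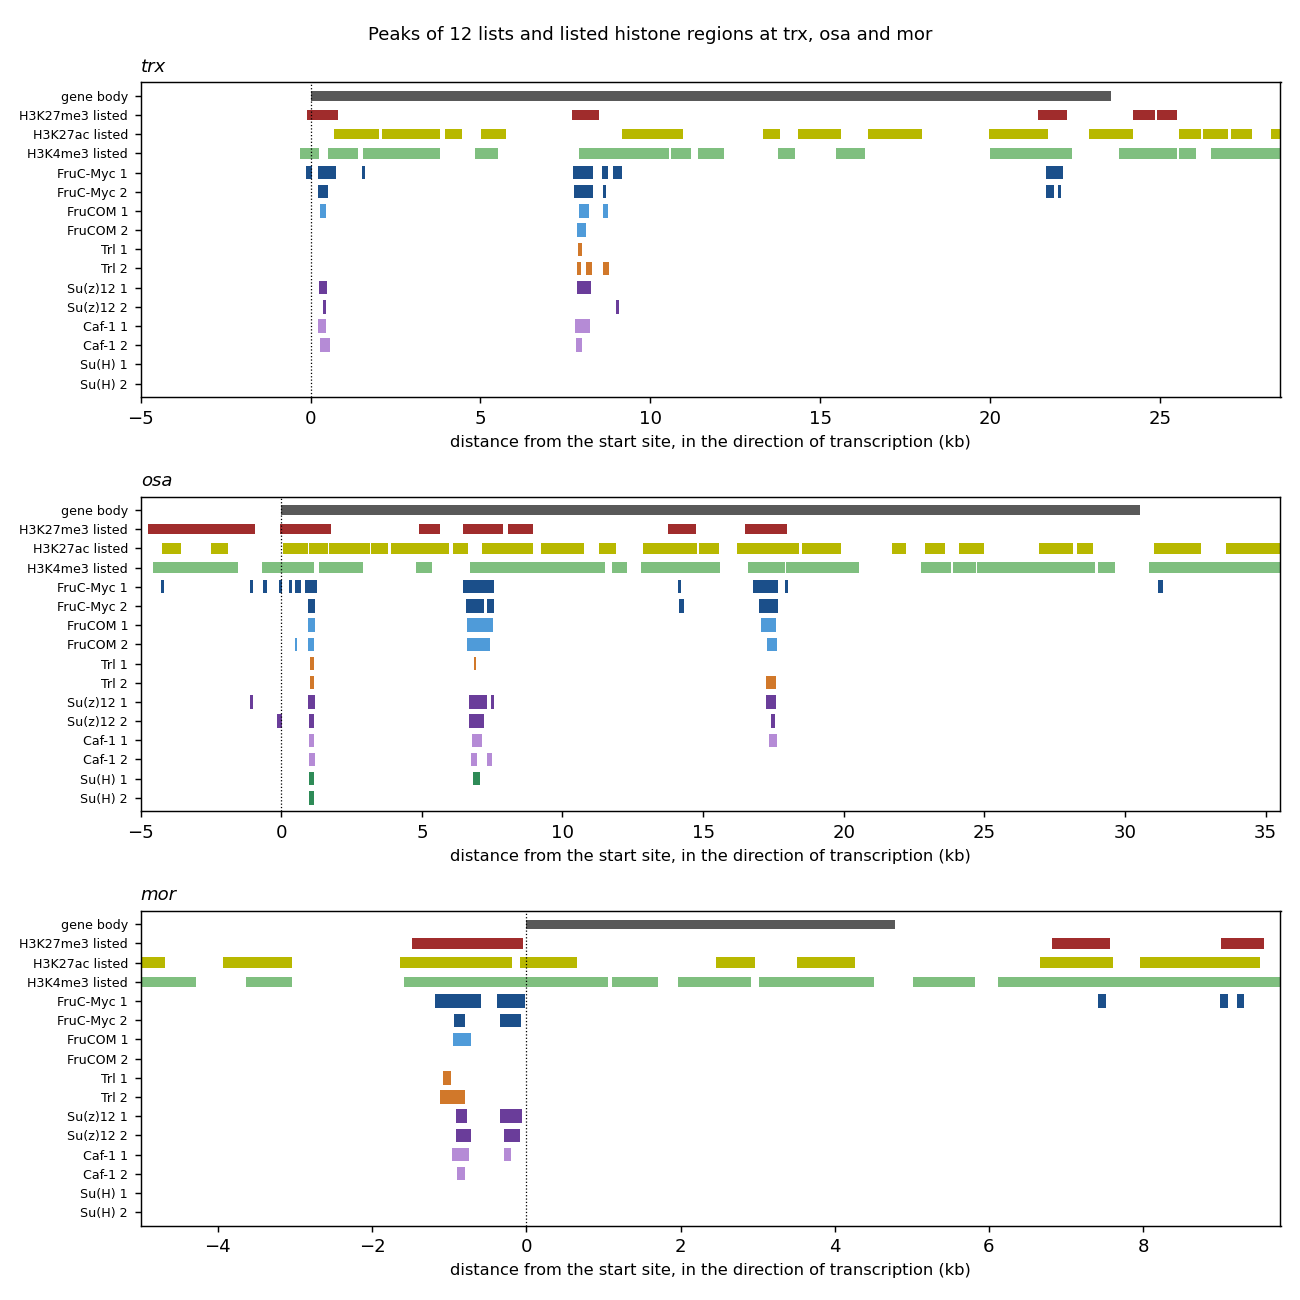
Peaks of the 12 lists (6 antibodies, replicates 1 and 2) and the regions listed for 3 histone marks in the comparison of *fruC*-null with control brains, along *trx*, *osa* and *mor*; the horizontal axis is the distance from the start site in kb in the direction of transcription, the dotted line is the start site and the dark bar the gene body. Peaks of several antibodies stack at 419 and 8055 bp in *trx*, at 1029, 6868 and 17428 bp in *osa* and at −891 bp at *mor*. Each has a listed H3K27me3 region and a listed H3K4me3 region.

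By antibody, the counts were small at promoters. FruCOM had a peak in both replicates on 0 of 7 promoters (6.91% of all genes) and Su(H) on 0 of 7 (0.402%). Trl had 1 of 7, *mor* (2.58%), and Caf-1 had 1 of 7, *mor* (4.55%). Su(z)12 had 2 of 7, *osa* and *mor* (7.09%), although the peaks of *osa* lay at −1040 bp in one replicate and −151 bp in the other. *mor* had 4 antibodies on its promoter in both replicates. With limits of 500 bp on each side of the start, or of 250 bp before to 50 bp after it, neither Trl nor Caf-1 counted at *mor* in both replicates.

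Over the whole windows FruCOM had a peak in both replicates at 2 of 7, *trx* and *osa* (19.2% of all genes). Trl had 3 of 7 (7.53%), and Caf-1 had 3 of 7 (12.6%). For both these were *trx*, *osa* and *mor*. Su(z)12 had 4 of 7 (17.9%), the same genes with *Snr1*. The windows of *osa* and *trx* are long, and these shares were not adjusted for length.

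Most FruC::Myc sites held FruC::Myc alone. Of the 38 sites, 25 had no other antibody, and 5 had 5 or 6 antibodies, which were the *osa* sites at 1029, 6868 and 17428 bp, the *trx* intron and the *mor* site. Of the replicate 1 peaks, 65.8% had no other antibody, beside 62.6% elsewhere. The shares overlapping FruCOM (21.1%, interval 11.1 to 36.3) and Su(z)12 (28.9%, 17.0 to 44.8) were close to the 26.9% and 21.6% elsewhere, and those intervals hold both values. The same held for Trl, with 15.8% (7.44 to 30.4) beside 11.04%, and for Caf-1, with 18.4% (9.22 to 33.4) beside 17.6%. Of the 6 peaks past a −log10 Q of 100, 5 overlapped 4 or 5 other antibodies, and of all 1207 such peaks on the arms 51.4% did. At −log10 Q values of 50 to 100 the share was 0 of 4 at these genes and 10.2% on the arms, so in both groups the share was higher past 100 than just below it. At these genes the peaks past 100 were also wider, at 416 to 1082 bp against 175 to 479 bp. An overlap needed only 1 bp, and the part of width was not tested.

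**Figure D4:**
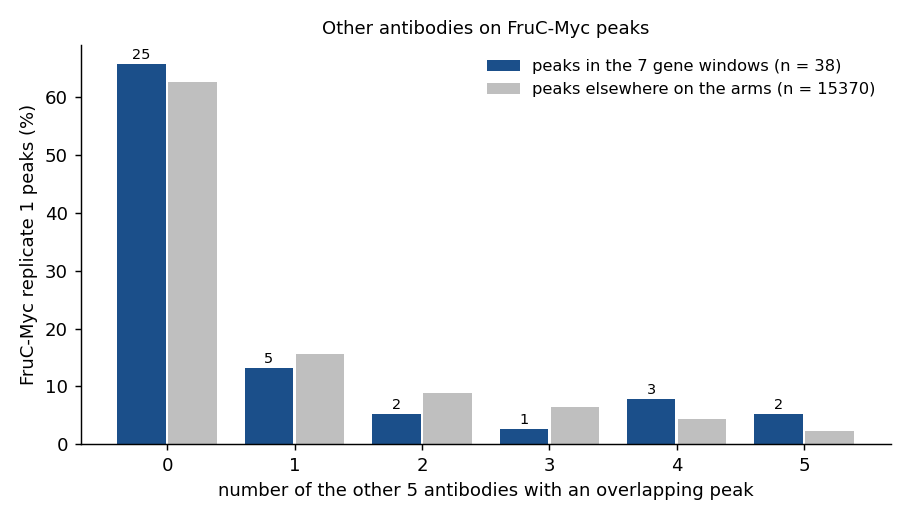
Share of FruC::Myc replicate 1 peaks (vertical axis, %) by the number of the other 5 antibodies with an overlapping peak in either replicate (horizontal axis), for the 38 peaks in the 7 windows (blue, with the number of peaks above each bar) and the 15370 elsewhere (grey). In both groups most peaks, 65.8% and 62.6%, overlap no other antibody.

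For the histone marks, the deposited tables list regions that the comparison of *fruC*-null with control brains returned, in either direction. Only the places of these regions are used here. A listed region says that the comparison reported that place, not that the mark rose or fell there. Listed H3K27me3 regions numbered 25 in the windows and covered 17.3% of them, beside 18.3% of the arms. By gene they covered from 3.51% of the *brm* window to 30.7% of that of *Bap60*. Coverage by listed H3K27me3 regions was thus near that of the arms, which says nothing of the amount of the mark itself.

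Most of the listed H3K27me3 regions in the windows held a FruC::Myc peak. Of the 25 H3K27me3 regions, 18 (72%) held a FruC::Myc peak, beside 26.96% of 20460 on the arms. For listed H3K27ac regions the share was 43.3%, beside 32.0% on the arms, and for H3K4me3 it was 41.5%, beside 32.8%. In the other direction, 28 of 38 replicate 1 peaks (73.7%, interval 57.99 to 85.0) lay on a listed H3K27me3 region, beside 50.5% elsewhere. For listed regions of the active marks these shares were higher, but so were the shares elsewhere. On listed H3K4me3 regions lay 37 of 38 (97.4%, interval 86.5 to 99.5), beside 74.5%. On listed H3K27ac regions lay 30 of 38 (78.9%, interval 63.7 to 88.9), beside 65.5%, which that interval holds. The windows also held more FruC::Myc peaks for their length than the arms did, and the part of that density in these shares was not tested. All 6 FruC-bound regions lay on a listed H3K27me3 region, beside 82.2% of such peaks elsewhere. All 6 also lay on a listed H3K4me3 region, beside 82.8%, and 5 of 6 on a listed H3K27ac region, beside 69.5%. On *osa* the regions ran from −50 to 1749 bp, from 6450 to 7899 bp and from 16500 to 17999 bp, around each of its 3 bound sites. On *trx* they ran from −97 to 802 bp and from 7703 to 8502 bp, and at *mor* from −1487 to −38 bp.

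A start site lay in a listed H3K27me3 region for 6 of 7 genes, all but *mor*, beside 33.1% of all genes. The *mor* region stopped 38 bp before the start. For H3K27ac it was 5 of 7, all but *trx* and *osa*, beside 47.6% of all genes, and for H3K4me3 7 of 7, beside 60.3%. The genes with several antibodies were not the only ones listed: *brm*, with the weakest promoter peak, had a listed region of all 3 marks over a start site. Listed H3K27ac regions numbered 90 and covered 50.1% of the windows, beside 21.2% of the arms, and 65 H3K4me3 regions covered 66.5%, beside 24.1%. Here too the arms were taken whole and not as gene windows.

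H3K9me3, the mark of heterochromatin, had peaks at 2 of the 7 genes. No peak lay in the windows of *trx*, *ash1*, *brm*, *osa* and *mor*. *Snr1* had 1 peak (−log10 Q 3.05) and *Bap60* had 3 (at most 14.0), none of them on a promoter of the 7 genes. Peaks covered 11.4% of the *Bap60* window and 2.37% of that of *Snr1*. Over the 7 windows together they covered 1.08%, beside 7.25% of the arms. Again the arms were taken whole and not as gene windows. The share of all protein-coding genes with an H3K9me3 peak was not counted.

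A list of 31 other Trithorax group genes was read in the same way. FruC::Myc had a promoter peak in both replicates at 12 of 31 and in replicate 1 at 26 of 31, beside the 17.0% and 49.4% of all genes. The other Brahma complex subunits had 0 of 7 in both replicates and 4 of 7 in replicate 1. The COMPASS family, which holds the H3K4 methyltransferase complexes, had 5 of 12 and 11 of 12. The partners of Ash1, MRG15 and Caf1-55, had 1 of 2, *Caf1-55*. That gene encodes the p55 protein called Caf-1 above, which is also a core component of PRC2. The remaining genes had 6 of 10. Among the 5 Brahma genes followed in full and the 7 further subunits, *mor* was the single gene with such a peak in both replicates. Both of its replicate 1 promoter summits were nearer to the start of *Hel89B*. The share to set beside this count is the same 17.0% of all genes. The groups were not tested against each other.

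The highest replicate 1 promoter values on this list were 160.0 for *kis*, a chromodomain helicase, 155 for *skd*, a Mediator kinase module subunit, 112 for *fs(1)h*, a bromodomain protein, 103 for *Hcf* and 97.9 for *tna*. In replicate 2 they were 37.5, 28.6, 27.5, 19.2 and 42.8 in the same order. *Bap111*, *Bap170*, *Brd7-9*, *Cfp1* and *kto* had no FruC::Myc promoter peak in either replicate. The median over the 26 genes with a replicate 1 peak was 42.4, beside 25.1 for the 7 genes.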

How the data were processed

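The labels and the Methods gave the genotypes, antibodies and replicates of 27 samples; 1 IgG sample was not used here. Reads had been trimmed by the authors (cutadapt) and aligned to BDGP6 (bowtie2). For transcription factors only fragments under 120 bp were used, and MACS2 was run on every replicate alone. The deposited peak lists hold a fold enrichment (a ratio to the local background) and a −log10 Q-value for each peak, as MACS2 gave the authors. H3K9me3 is 1 list, and whether its replicates were pooled is not stated in the sources used here. The remaining marks were compared between genotypes by the authors in sliding windows of 500 bp (diffReps), and the deposited tables hold the place and length of each region with its direction, fold change and p-value. Those last are the authors' comparison of genotypes and were not used. Depth per sample is unknown.

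Genes came from Ensembl release 115 of BDGP6, and sequences from the RefSeq genome of the same assembly. Overlap required 1 bp. FruC-bound regions were FruC::Myc peaks with a −log10 Q above 100, merged over replicates, without those on H3K9me3 regions past the same value merged within 3000 bp; the ENCODE blacklist was not used. Shares carry 95% Wilson intervals. The analysis ran in Python 3.11.15 with scipy 1.17.1 and numpy 2.4.6, and plots were drawn with matplotlib 3.10.9. The overlap code was checked against bedtools on 5000 simulated regions and found 200 of 200 planted overlaps. Columns of samples of other series numbered 0. The 7 genes are described in full; of the 31 others, those named had a FruC::Myc promoter peak in neither replicate or were among the 5 highest in replicate 1. Neighbours named have a start within 1000 bp of a described peak or are the nearest to a start site of the 7 genes. The genes and lists were chosen with earlier results of these data known. Alternatives were other Q-value levels, flanks and promoter limits, either replicate or each left out, FruCOM in place of FruC::Myc and a wider search for GAGAG; reading the threshold of 100 on the MACS2 score was added after seeing the data.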

Additional observations from a re-analysis of the deposited data

How the results depend on the processing

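Of 113 alternative values, 73 stayed within the limits set for them (for a count, 1.5 times) and 40 did not. Counting a FruC::Myc peak in either replicate gave 7 promoters (49.4% of all genes) and 7 windows (77.3%) in place of 2 and 4. Leaving out a replicate gave 2 to 7 promoters, 4 to 7 windows, 0 to 6 bound regions and 12 to 26 other Trithorax group genes, the lower value each time without replicate 1. Without replicate 1 only 43 bound regions were left genome-wide. A −log10 Q above 10 left 1 promoter (8.17%). The 6 bound regions, of 1221 genome-wide, became 10 of 3539, 17 of 7727 and 24 of 11362 at levels above 50, 20 and 10. A level above 200 gave 2 of 188. With the 100 read on the MACS2 score, an alternative chosen after seeing the data, it was 24 of 10427. Requiring both replicates past 100 gave 0 of 40, and FruCOM in place of FruC::Myc gave 0 of 64. With so few regions genome-wide, these last 2 counts say little about the 7 genes. Promoter limits of 500 bp on each side left Trl on 0 promoters in place of 1, and limits of 250 bp before to 50 bp after left Trl and Caf-1 on 0 and Su(z)12 on 1 in place of 2. The gene body alone left Su(z)12 at 2 genes in place of 4. Requiring 0.5 of a FruC::Myc peak to be covered lowered the overlap with each of the other 5 antibodies. GAGAG within 100 bp was present at 14 of 38 summits in place of 9, beside 40.3% elsewhere. No paired analysis was possible because the lists hold no values per sample that a model could be fitted to. The depth of the lists is unknown, so a missing peak in replicate 2 means that none was called there.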
